A study of Mus musculus with 8 samples.

Results

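S100b and 9 other genes for calcium-binding proteins of the S100 family and their partner Clstn3 are described here in mouse brown adipose tissue (BAT). S100b was chosen by its fall between the groups of these same libraries, and the others because they belong to its family or, for Clstn3, because it acts in its secretion. The 10 genes are S100b, S100a1, S100a4, S100a6, S100a8, S100a9, S100a10, S100a11, S100a13 and Clstn3. They are 10 of the 33641 gene symbols in the files and carry 25 of the 105129 transcripts. RNA was sequenced from interscapular BAT of C57BL/6 mice aged 28 weeks. The 3 libraries A7, A8 and A12 were labelled wild-type, and the 5 libraries A24, A25, A26, A29 and A31 were labelled adipo-HuR-/- (HuR KO). In the HuR KO mice the Cre recombinase was driven by the adiponectin promoter and acted on floxed alleles of HuR, so that cells of BAT other than adipocytes keep HuR. The controls were littermates of the genotypes wt/wt-cre+, flox/flox-cre- or wt/flox-cre-, and the labels do not give which of them each wild-type mouse had.

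Totals lay between 17558090 (A25) and 67498055 (A26) counts per library, and A24 had 18264754. Values below are in CPM, a gene's counts scaled to the library's total and by edgeR's TMM method, unless stated per kilobase of transcript. A positive log2 fold change is higher in HuR KO. HuR is the product of Elavl1. Elavl1 was at 50.6, 48.0 and 49.2 CPM in A7, A8 and A12 and at 61.9, 47.2, 43.4, 61.3 and 61.2 CPM in A24, A25, A26, A29 and A31. The groups overlapped and the mean of the libraries labelled HuR KO was the higher one (edgeR log2 fold change 0.16, Benjamini-Hochberg adjusted p 0.667). The sum covers every exon and every cell type, and the labels do not give the exons that were floxed, so it does not check the deletion. Groups are therefore named by their labels. The legend of the study gives 5 control and 3 HuR KO samples of BAT, which differs from the labels.

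S100 proteins are small EF-hand proteins that mostly form dimers, change shape when they bind calcium and then attach to partner proteins; they have no enzyme activity of their own. Some act only inside the cell, on the cytoskeleton, annexins or calcium release channels, and some are also released and bind receptors such as RAGE (Ager) and TLR4. S100b is best known from astrocytes and Schwann cells, and brown adipocytes also make it. There it leaves the cell without a signal peptide and promotes growth of sympathetic axons, which carry the signal for heat production, and an adipocyte form of calsyntenin 3, an endoplasmic reticulum membrane protein from Clstn3, enhances its secretion.

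The tissue label was compared with 14 genes of brown adipocytes, all of which passed the filter on low counts. Ucp1 had a mean of 8588 ± 3388 CPM (SD, n = 3) in wild-type and 7855 ± 2459 CPM (SD, n = 5) in HuR KO. The most abundant gene of the list was Fabp4, from 6899 CPM in A25 to 14538 CPM in A8. None of the 14 was past the threshold, which was an adjusted p of at most 0.05 by edgeR's quasi-likelihood test and a fold change of at least 1.5, and their median log2 fold change was −0.07. At an unadjusted p under 0.05, 1 of them was higher in HuR KO, Prdm16, a gene named after its values were seen, beside 17.0% of all genes in either direction.

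S100b was at 132 CPM in A7, 138 CPM in A8 and 82.5 CPM in A12, and at 56.1, 39.7, 43.8, 52.0 and 46.1 CPM in A24, A25, A26, A29 and A31. The groups did not overlap, A12 stood well below the other wild-type libraries, and the HuR KO libraries lay close together. The means were 118 ± 30.7 CPM (SD, n = 3) in wild-type and 47.5 ± 6.54 CPM (SD, n = 5) in HuR KO, a log2 fold change of −1.31. As this contrast selected S100b, no test of it is given. The lowest wild-type library was 1.47-fold above the highest HuR KO library, A24. Within HuR KO the highest library was 1.41-fold above the lowest, and within wild-type 1.68-fold. Of the 14851 genes tested, 317 (2.13%) had a lower log2 fold change. Each library held S100b in a single transcript, ENSMUST00000036387.7, so that no division of reads between transcripts enters these values. In bulk tissue, fewer cells that make a transcript cannot be told apart from less of it per cell.

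**Figure D1:**
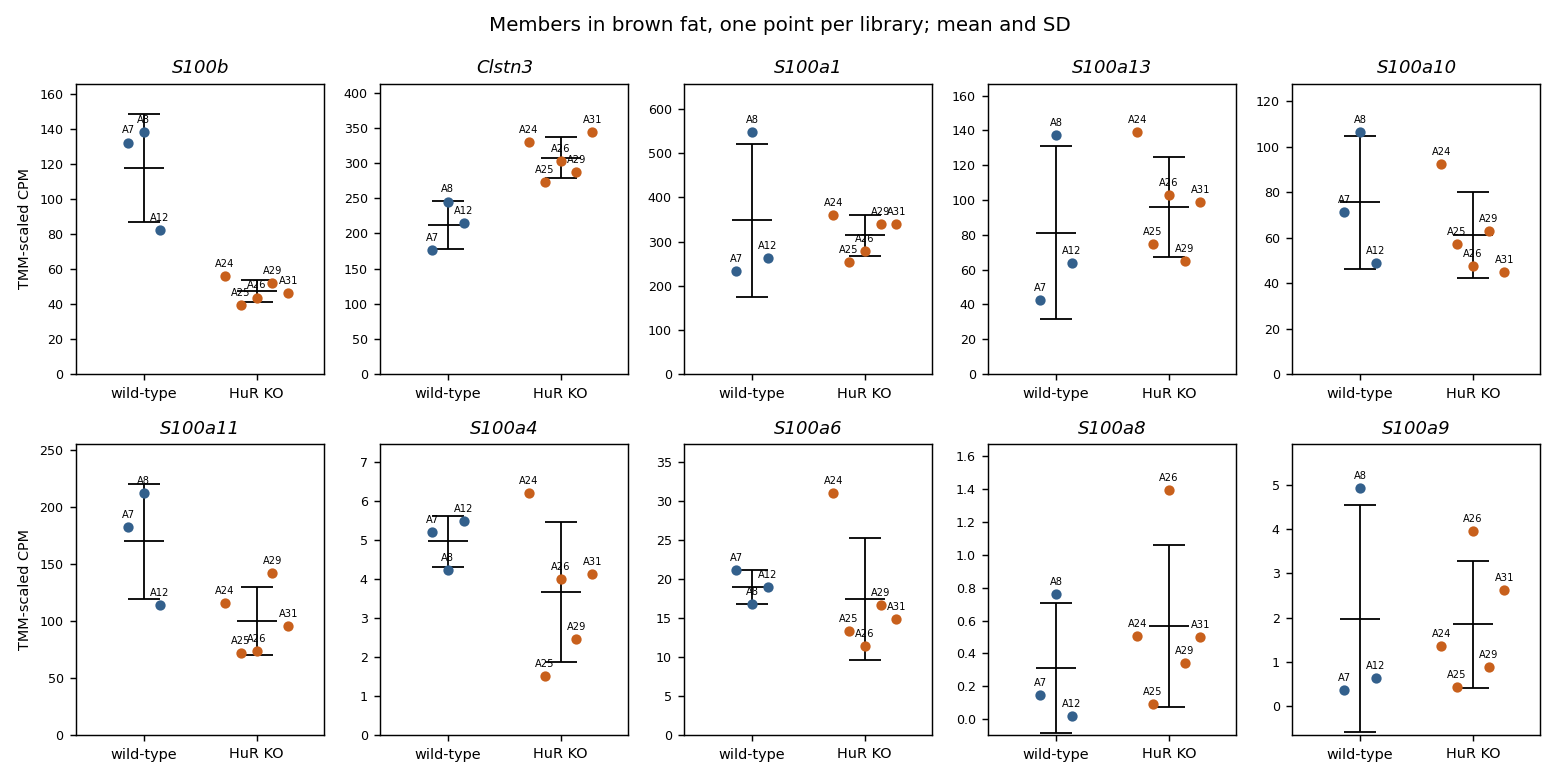
TMM-scaled CPM (linear vertical axes, each panel with its own range) of the 10 genes in the 3 wild-type and 5 HuR KO libraries; each point is a library and the bars are the mean and SD. The groups do not overlap for S100b, with 82.5 CPM or more in wild-type and 56.1 CPM or less in HuR KO, or for Clstn3, and they overlap for the other 8 genes.

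Schwann cells also make S100b, and 16 of their marker genes were followed. Their summed level was 127, 86.1 and 116 CPM in A7, A8 and A12 and 110, 78.9, 76.9, 76.6 and 84.0 CPM in A24, A25, A26, A29 and A31, with means of 110 ± 21.2 CPM (SD, n = 3) and 85.4 ± 14.3 CPM (SD, n = 5). The highest sum was in A7, the library with the most S100b when library totals were used in place of TMM. The sum of A8, the library with the most S100b by TMM, lay below that of A24. Of the 12 genes tested none was past the threshold with edgeR, and their median log2 fold change was 0.25. At an unadjusted p under 0.05, 3 were higher in HuR KO (Sox10, Erbb3 and Ngfr) and 1 lower (Pmp22), all named after their values were seen, or 4 of 12 beside 17.0% of all genes. Sox10, the transcription factor that defines the lineage, was at 0.972, 0.582 and 0.439 CPM in wild-type and at 1.41, 0.996, 1.33, 1.23 and 1.33 CPM in HuR KO. Each HuR KO library was thus above each wild-type library for Sox10 (edgeR log2 fold change 0.92, Benjamini-Hochberg adjusted p 0.201). The groups did not overlap, in either direction, for 11.5% of all genes. Pmp22, a gene of the myelin sheath, was at 57.0, 42.1 and 56.6 CPM in wild-type and at 51.2, 22.4, 22.5, 27.9 and 30.1 CPM in HuR KO (edgeR log2 fold change −0.755, Benjamini-Hochberg adjusted p 0.182), with A24 above A8. The genes of the list thus differed in direction. The myelin gene Mbp, the most abundant over all 8 libraries though below Pmp22 in wild-type, was at 44.5 ± 10.2 CPM (SD, n = 3) in wild-type and 37.1 ± 4.56 CPM (SD, n = 5) in HuR KO, and Gfap was at 0 counts in all libraries but A31. The part of Schwann cells in the level of S100b was not tested.

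Genes of sympathetic axons, whose growth S100b promotes and whose cell bodies lie outside the tissue, had few counts, and the cause was not tested. The 13 genes of the list summed to 2.15, 1.88 and 1.88 CPM in A7, A8 and A12 and to 1.64, 0.998, 2.01, 1.47 and 1.54 CPM in A24, A25, A26, A29 and A31. These sums overlapped between the groups. Dbh and Npy had 0 counts in all 8 libraries, Th had counts in A7 and A8 only, and Prph had counts in A25, A26 and A29 only. The most abundant gene was Slc18a2, the vesicular monoamine transporter, at 0.889 ± 0.420 CPM in wild-type (SD, n = 3) and 0.572 ± 0.183 CPM in HuR KO (SD, n = 5). Only 4 of the 13 had enough counts for a test, none was past the threshold with edgeR or had an unadjusted p under 0.05, and their median log2 fold change was 0.02. Among 12 neurotrophic factors, 7 were tested with edgeR, none was past the threshold or had an unadjusted p under 0.05, and their median log2 fold change was 0.17. The most abundant factor was Nrg4, a factor released by brown adipocytes, at 98.9 ± 3.66 CPM in wild-type (SD, n = 3) and 86.7 ± 15.6 CPM in HuR KO (SD, n = 5), and Artn had 0 counts in A7, A8, A12, A24 and A31.

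Contractile genes of skeletal muscle set some libraries apart. The 26 genes of this list summed to 4336 CPM in A7, 2672 CPM in A8 and 464 CPM in A31, against 58.2 CPM in A12 and 49.8, 38.4, 28.7 and 55.4 CPM in A24, A25, A26 and A29. The most abundant over all 8 libraries, the myosin gene Myh4, was at 1048, 457 and 106 CPM in A7, A8 and A31 and at 0 counts in A25, A26 and A29. All 26 had a negative log2 fold change, with a median of −4.58. Of them, 23 had an unadjusted p under 0.05 by edgeR, beside 17.0% of all genes. Past the threshold were Myh7, Myl1 and Myl2, beside 0.707% of all genes. The wild-type libraries with the most S100b, A7 and A8, were high in muscle transcripts. Outside A7, A8 and A31, S100b in A12 was 1.72-fold above the mean of A24, A25, A26 and A29. Among the libraries high in muscle transcripts, the mean of A7 and A8 was 2.94-fold above A31. Their contractile sums were unlike, at 4336 and 2672 CPM in A7 and A8 against 464 CPM in A31. This comparison is thus not at a like level of muscle transcripts. The fitted log2 fold change of S100b was −0.79 without A7, A8 and A31, a fit in which A12 is the lone wild-type library and is assumed to vary as the HuR KO libraries do. With the mean level of the contractile genes as a covariate it was −1.01. A12 and A31 each stood alone on their side of the comparisons above. As these libraries selected S100b, these values describe its level and are no support for its fall.

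**Figure D2:**
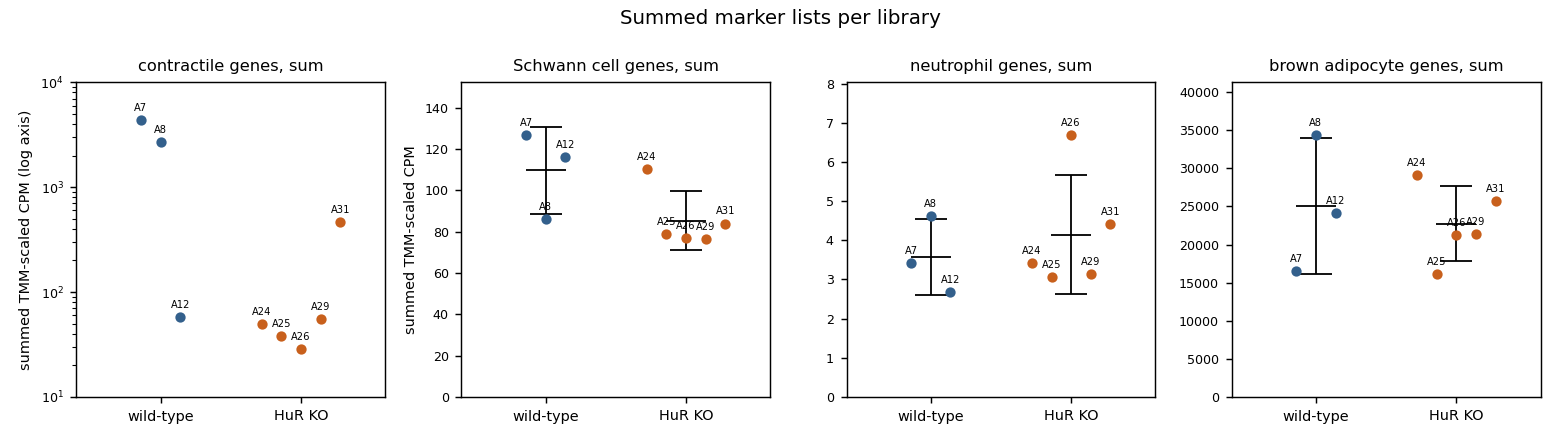
Summed TMM-scaled CPM of 4 marker lists in each library; the left panel has a log axis and no bars, and the others have linear axes with the mean and SD of each group. The contractile genes are high in A7, A8 and A31, at 464 CPM or more, and at 58.2 CPM or less in the other 5 libraries; the other lists overlap between the groups.

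Clstn3 moved in the opposite direction. It was at 176, 245 and 215 CPM in A7, A8 and A12 and at 330, 273, 303, 287 and 344 CPM in A24, A25, A26, A29 and A31. All 5 HuR KO libraries lay above all 3 wild-type libraries. The means were 212 ± 34.6 CPM in wild-type (SD, n = 3) and 308 ± 29.4 CPM in HuR KO (SD, n = 5). The log2 fold change was 0.54 (SE 0.167), a fold of 1.45, with an unadjusted p of 0.00887 and a Benjamini-Hochberg adjusted p of 0.138 by edgeR, so Clstn3 was not past the threshold. With library totals in place of TMM the log2 fold change was 0.79 (adjusted p 0.0517 by edgeR), and the median over all genes was then 0.23 above 0, so that this change is to be read relative to that shift. DESeq2's Wald test gave a log2 fold change of 0.53 and an adjusted p of 0.0334, below the minimum of the fold change; over all 20 alternatives the adjusted p by edgeR, limma or DESeq2 lay between this value and 0.470, each with Benjamini-Hochberg adjustment.

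The Clstn3 gene lies on chromosome 6, chr6:124430759-124464794 on GRCm38, minus strand, and 7 of its transcripts are listed. The authors' values divide its reads almost wholly between 2 of them. ENSMUST00000112523.7, a protein-coding transcript of 18 exons and 3703 bases, was at 82.0, 145 and 105 CPM in wild-type and at 156, 98.7, 136, 155 and 174 CPM in HuR KO. A25 lay below A12 and A8, so its groups overlapped. ENSMUST00000124998.1, a processed transcript of 3 exons and 728 bases at the 3′ end of the gene, was at 94.1, 101 and 110 CPM in wild-type and at 174, 174, 167, 132 and 169 CPM in HuR KO. Its groups did not overlap, and the wild-type values lay close together. Per kilobase, the short transcript had the higher level, at 140 ± 10.9 CPM per kilobase (SD, n = 3) in wild-type and 224 ± 24.3 (SD, n = 5) in HuR KO, against 29.8 ± 8.57 and 38.9 ± 7.75 CPM per kilobase for the long one. Of the 728 bases of the short transcript, 632 (86.8%) are also in the long one and 96 are its own, so the division between them is uncertain and was not tested. ENSMUST00000008297.4, which has 4014 bases and contains 3640 of the 3703 bases of the long transcript, is listed at 0 in all 8 libraries. The adipocyte form of calsyntenin 3 is known to come from the 3′ part of the gene, and none of these identifiers was matched to it.

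**Figure D3:**
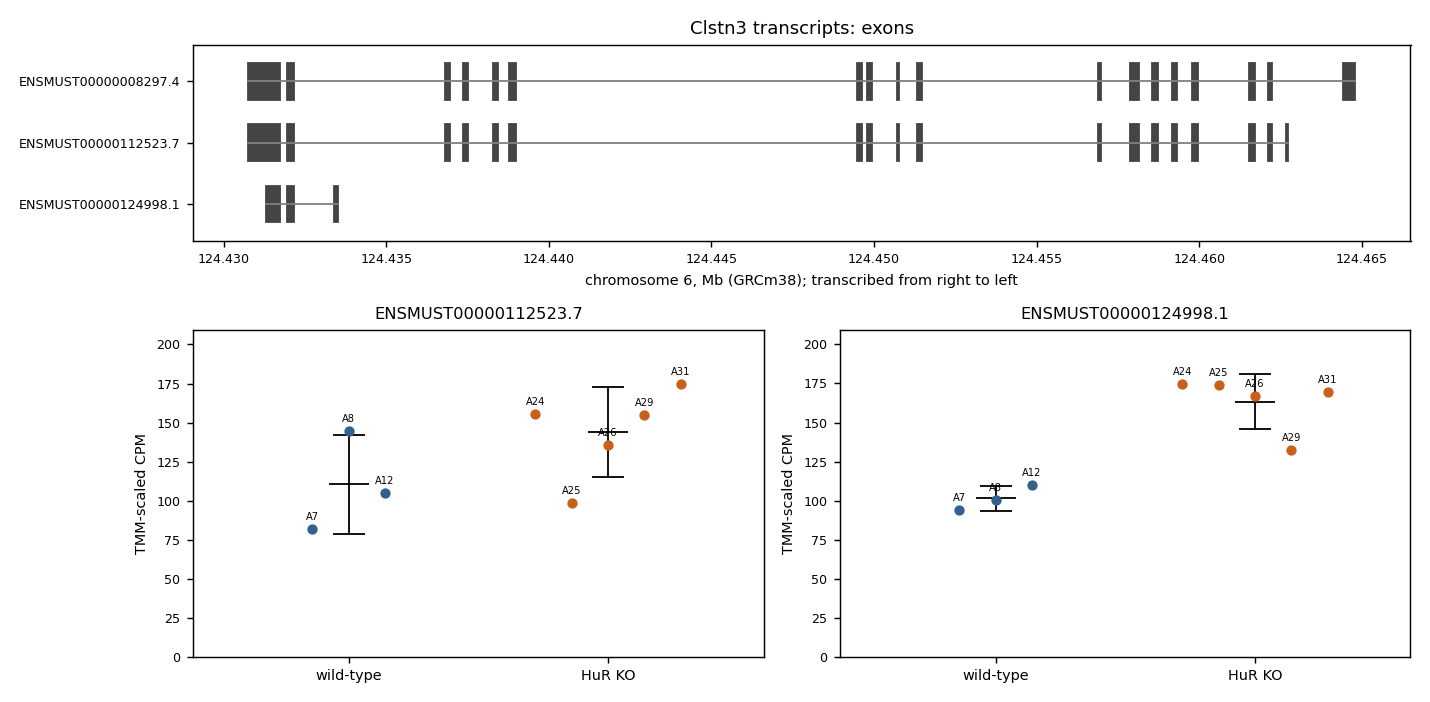
Exons of 3 Clstn3 transcripts on chromosome 6 (GRCm38, horizontal axis in megabases) above the TMM-scaled CPM of the 2 with counts in each library (points) with the mean and SD of each group. The short transcript is at 110 CPM or less in the wild-type libraries and at 132 CPM or more in the HuR KO libraries, and the long one overlaps between the groups.

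All 10 genes passed the filter on low counts. Of the 9 other than S100b, 0 were past the threshold with edgeR, beside 105 of the 14851 genes tested (0.707%). The count of all genes was between 10 and 190 when single libraries were left out. At an unadjusted p under 0.05 there were 2, Clstn3 and S100a11, beside 17.0% of all genes. With the Wald test of DESeq2, the likelihood ratio test of edgeR and limma voom, 0 of the 9 were past the threshold as well. Only Clstn3, 1 of the 9, had groups that did not overlap, beside 11.5% of all genes. The log2 fold change was positive for 3 and negative for 6, with a median of −0.13, beside a median of 0.00 over all genes. A p-value of edgeR here sets a gene's group difference against a spread estimated from these 8 libraries alone. That estimate draws on all genes tested.

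S100a10 and S100a11 are partners of annexins: S100a10 holds annexin A2 in a complex at the membrane without needing calcium, and S100a11 binds annexin A1. S100a11 was at 183, 212 and 114 CPM in A7, A8 and A12 and at 115, 71.4, 73.5, 142 and 95.8 CPM in A24, A25, A26, A29 and A31. A12 lay below A24 and A29, and the other wild-type libraries above all of HuR KO. The means were 170 ± 50.3 CPM in wild-type (SD, n = 3) and 99.6 ± 29.7 CPM in HuR KO (SD, n = 5), with a log2 fold change of −0.77 (SE 0.267) and an adjusted p of 0.179 by edgeR with Benjamini-Hochberg adjustment. Without A7, A8 and A31, the libraries high in muscle transcripts, the log2 fold change was −0.18, and with the contractile genes as a covariate −0.44. S100a10 lies next to S100a11 on chromosome 3 and was at 71.2, 106 and 48.7 CPM in wild-type and at 92.5, 57.4, 47.7, 63.0 and 45.0 CPM in HuR KO. Its groups overlapped widely, with A8 and A24 high (edgeR log2 fold change −0.30, Benjamini-Hochberg adjusted p 0.638). S100a10 had log2 fold changes of 0.42 without A7, A8 and A31 and 0.03 without A8, so its direction rests on which libraries are used.

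S100a1 binds ryanodine receptors and is best known from heart and skeletal muscle. It was at 234, 548 and 263 CPM in A7, A8 and A12 and at 361, 253, 278, 339 and 339 CPM in A24, A25, A26, A29 and A31. A8 was the highest library, but it also had the lowest TMM factor (0.763), and with library totals in place of TMM it was at 418 CPM beside 381 CPM in A31. The log2 fold change was −0.15 (SE 0.274, adjusted p 0.829 by edgeR, Benjamini-Hochberg) and 0.34 without A8. With A8 kept it was 0.14 with library totals in place of TMM, 0.093 with limma voom and 0.091 with the contractile covariate. Its direction thus rests on the libraries used, the scaling and the model. A7, the library with the highest level of contractile genes, had the lowest level of S100a1. A8, with the next highest level of contractile genes, had the highest level of S100a1. The part of muscle in these values was not tested. S100a13, which takes part in the release of fibroblast growth factor 1 without a signal peptide, was at 42.5, 137 and 64.0 CPM in wild-type and at 139, 74.4, 103, 65.1 and 98.8 CPM in HuR KO. A7 was the lowest library for both genes, also with library totals, where A24 and A31 were the highest for S100a13. The log2 fold change of S100a13 was 0.24 (SE 0.363; adjusted p 0.784 by edgeR, Benjamini-Hochberg), with 0.86 without A8 and −0.07 without A7.

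S100a4 binds non-muscle myosin and is found in fibroblasts and migrating cells, and S100a6 binds the protein Cacybp. S100a4 lay between 4.23 and 5.47 CPM in wild-type and between 1.52 and 6.20 CPM in HuR KO, where 4 libraries were below the lowest wild-type library and A24 was above the highest. S100a6 had the same pattern, with 16.8 to 21.1 CPM in wild-type and 11.4 to 31.1 CPM in HuR KO, again with A24 above and 4 libraries below. With library totals A24 was still above for both genes, while 2 libraries were below for S100a4 and 1 for S100a6. The log2 fold changes were −0.45 for S100a4 and −0.13 for S100a6, with adjusted p-values of 0.592 and 0.865 by edgeR with Benjamini-Hochberg adjustment. Without A24 they were −0.71 and −0.44. For S100a4 it was −0.26 both without A25 and with library totals in place of TMM, and for S100a6 it was 0.07 with library totals. Fibroblast genes were compared beside them: the 11 genes of the list summed to 421 ± 198 CPM (SD, n = 3) in wild-type and 281 ± 71.2 CPM (SD, n = 5) in HuR KO, with a median log2 fold change of −0.42. Their most abundant gene, Col3a1, was at 163, 74.5 and 257 CPM in wild-type and at 104, 90.1, 33.5, 74.7 and 85.9 CPM in HuR KO. Col3a1 was the 1 gene of the 11 with an unadjusted p under 0.05 by edgeR, beside 17.0% of all genes, and 0 were past the threshold. The part of fibroblasts in these values was not tested.

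S100a8 and S100a9 form calprotectin, a protein stored in neutrophils and released in inflammation. S100a8 had 9, 30 and 1 counts in A7, A8 and A12 and 9, 2, 94, 18 and 33 counts in A24, A25, A26, A29 and A31. With these few counts, A12 was at 0.0209 CPM with an exact Poisson 95% interval from 0.000529 to 0.116 CPM, and A26 at 1.39 CPM with an interval from 1.13 to 1.70 CPM; such intervals cover counting error only. S100a9 had 22, 195 and 30 counts in wild-type and 24, 9, 267, 47 and 173 counts in HuR KO. A8 and A26 were the high libraries for both genes, 1 in each group, and A31 came next for S100a9; with library totals A31 (0.562 CPM) lay close to A8 (0.580 CPM) for S100a8. The log2 fold change was 0.97 (SE 0.935) for S100a8 and −0.05 (SE 0.857) for S100a9, with adjusted p-values of 0.647 and 0.984 by edgeR with Benjamini-Hochberg adjustment. Without A8 they were 2.72 and 1.95. The log2 fold change of S100a8 was 0.42 without A12, 0.61 without A7, 0.29 without A26, 4.69 without A7, A8 and A31, 2.38 with the contractile covariate and 2.22 with limma voom, and with single libraries left out that of S100a9 lay between −0.55 and 1.95, so neither value is independent of single libraries. The 14 other neutrophil genes summed to 3.43, 4.61 and 2.68 CPM in wild-type and to 3.42, 3.07, 6.70, 3.13 and 4.40 CPM in HuR KO. Their most abundant gene over all 8 libraries, Csf3r, below Cxcr2 in wild-type (0.808 against 1.02 CPM), was at 2.65 CPM in A26 and between 0.451 and 1.28 CPM in the other libraries, while Camp had 1 count, in A26, and Ly6g 3 in A26 and 1 in A31. Ltf, Retnlg, Mmp8, Stfa2l1 and Chil3 were also highest in A26. The rest of the 14 peaked elsewhere, Cxcr2 and Ngp in A8, Lcn2 in A24, Mmp9 and Mpo in A25, and Elane in A29. All of these were named after their values were seen. Of the 14, 5 were tested with edgeR, 0 were past the threshold or at an unadjusted p under 0.05, and their median log2 fold change was 0.23. The part of neutrophils in the counts of S100a8 and S100a9 was not tested. Macrophage genes summed to 121 ± 61.9 CPM in wild-type (SD, n = 3) and 116 ± 32.8 CPM in HuR KO (SD, n = 5), led by Lyz2, with 0 of 12 past the threshold or at an unadjusted p under 0.05 with edgeR and a median log2 fold change of −0.06.

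Levels between genes were compared per kilobase of transcript, as a mean over the libraries of a group. In wild-type the order was S100a1 (516 ± 257 CPM per kilobase, SD, n = 3), S100a11 (332 ± 98.4), Clstn3 (169 ± 15.4), S100a13 (114 ± 69.4), S100a10 (110 ± 42.5), S100b (79.4 ± 20.7), S100a6 (36.7 ± 5.05), S100a4 (9.99 ± 1.32), S100a9 (3.85 ± 5.01) and S100a8 (0.634 ± 0.814). S100a1 and S100a11, Clstn3 and S100a13, S100a13 and S100a10, S100a10 and S100b, and S100a9 and S100a8 were neighbours whose means differed by less than the larger of their SDs. In HuR KO it was S100a1 (465 ± 68.3 CPM per kilobase, SD, n = 5), Clstn3 (264 ± 23.5), S100a11 (195 ± 58.1), S100a13 (134 ± 40.3), S100a10 (89.2 ± 27.7), S100a6 (34.1 ± 19.1), S100b (32.0 ± 4.41), S100a4 (7.39 ± 3.61), S100a9 (3.61 ± 2.80) and S100a8 (1.17 ± 1.01). S100b thus stood above S100a6 in wild-type and within its SD in HuR KO, where S100a9 and S100a8 were the other neighbours within an SD. The level of S100a6 is divided among 4 listed transcripts. The place of Clstn3 rests on the uncertain division of its reads: with all of them on the long transcript its level would be 57.3 ± 9.35 CPM per kilobase (SD, n = 3) in wild-type, below S100b, and 83.0 ± 7.95 (SD, n = 5) in HuR KO, between S100a10 and S100a6.

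Of the S100 genes outside the 10, together with the S100P-binding protein gene S100pbp, 9 are listed in the files and 3 passed the filter, S100a16, S100g and S100pbp. None of the 3 was past the threshold or had an unadjusted p under 0.05 with edgeR. S100a16, the most abundant, was at 19.8 ± 3.51 CPM in wild-type (SD, n = 3) and 23.8 ± 6.69 CPM in HuR KO (SD, n = 5), with a log2 fold change of 0.26. S100a5 and S100z had 0 counts in all libraries, and S100a2 had counts in A7 only. The other calsyntenin genes, Clstn1 and Clstn2, had log2 fold changes of 0.16 and 0.35, and neither was past the threshold with edgeR or had an unadjusted p under 0.05. Clstn1 was the more abundant, at 28.3 ± 2.55 CPM in wild-type (SD, n = 3) and 31.7 ± 2.50 CPM in HuR KO (SD, n = 5).

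Among 15 partners and receptors of S100 proteins, 14 were tested, none was past the threshold with edgeR, and 12 had a negative log2 fold change, with a median of −0.40 beside 0.00 over all genes. At an unadjusted p under 0.05 there were 4, all lower in HuR KO and named after their values were seen: Tlr4, Anxa6, Ryr1 and Ryr2. They are 4 of 14, beside 17.0% of all genes at this level. Tlr4, a receptor for released calprotectin, was at 4.32, 3.32 and 5.27 CPM in A7, A8 and A12 and at 1.52, 1.52, 2.61, 1.59 and 2.18 CPM in A24, A25, A26, A29 and A31. The groups did not overlap, and A12 was the highest (edgeR log2 fold change −1.18, Benjamini-Hochberg adjusted p 0.0750). For Anxa6 the groups did not overlap either, beside 11.5% of all genes without overlap. Ryr1, the calcium release channel of skeletal muscle, was at 78.5, 22.7 and 7.17 CPM in A7, A8 and A31 and at 0.170 CPM or less in the other 5 libraries, so it followed the contractile genes. The most abundant of the list, Bsg, a receptor for S100a9, was at 697 ± 203 CPM in wild-type (SD, n = 3) and 650 ± 161 CPM in HuR KO (SD, n = 5). Ager, the receptor of S100b, was at 0.677 CPM or less in each library, and the synaptic gene Syt1 had counts in A25 only. Of 21 other EF-hand genes, 18 were tested and none was past the threshold with edgeR, with a median log2 fold change of −0.07. At an unadjusted p under 0.05, Efhd2 was higher and Pvalb and Chp1 were lower, all named after their values were seen; these 3 of 18 are near the 17.0% of all genes at this level. Pvalb, a calcium buffer of fast muscle, was at 136, 140 and 16.03 CPM in A7, A8 and A31 and at 0 counts in the other libraries. Cib2 led this list, at 354 ± 155 CPM in wild-type (SD, n = 3) and 358 ± 75.3 CPM in HuR KO (SD, n = 5), and Calb2 had 0 counts in all libraries. The endothelial list, led by Cdh5 over all 8 libraries, had a median log2 fold change of 0.16, with 0 of 7 past the threshold or at an unadjusted p under 0.05 with edgeR. The blood list, led by Hbb-bs, had a median of −0.36, with 0 of 5 past the threshold and 1, Alas2, lower at an unadjusted p under 0.05 with edgeR; Alas2 was named after its values were seen.

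Profiles over the 8 libraries were compared by the mean absolute difference of log2 CPM after each gene's own mean was taken off. The 5 genes most like S100b were Mpp6 (0.127), Mxi1 (0.142), Pir (0.160), Mrps6 (0.187) and Lyrm7 (0.193), where the median gene was at 0.664. Each of the 5 was lower in HuR KO, as the likeness to S100b entails. Mpp6 had 24.03 ± 3.13 CPM (SD, n = 3) in wild-type and 9.65 ± 1.22 CPM (SD, n = 5) in HuR KO. The 5 most like S100a1 were the ribosomal protein genes Rpl30 (0.0631), Rpl36a (0.0644), Rpl27a (0.0679), Rpl21 (0.0684) and Rpl26 (0.0710), with a median gene at 0.427. Rpl30 was at 118 ± 49.2 CPM in wild-type (SD, n = 3) and 115 ± 18.6 CPM in HuR KO (SD, n = 5). Its wider spread in wild-type, as for S100a1, is entailed by the likeness to S100a1. The 5 nearest to S100a8 were 1700001O22Rik (0.451), Gm15557 (0.526), Gm6863 (0.541), Slco1a1 (0.549) and Gm14735 (0.551), each with a mean of 0.353 CPM or less in either group.

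The genes share a place as well as a fold: 8 of the 10 lie on chromosome 3 of GRCm38, in the order S100a1, S100a13, S100a4, S100a6, S100a8 and S100a9 from 90511034 to 90695721, and S100a11 and S100a10 from 93520488 to 93564643. S100b lies apart at chr10:76253853-76261159, plus strand. S100a1 on the minus strand and S100a13 on the plus strand start away from each other with 42 bases between them in GENCODE M21. This stretch is printed because the genes start on either side of it and both were lowest in A7 with either scaling. Their highest libraries differed with either scaling, A8 for S100a1 and A24 for S100a13. The stretch was read from the RefSeq promoter window of S100a13 on GRCm38.p6 and is chr3:90514393-90514434, plus strand, with 54.8% G or C.
S100a1 to S100a13: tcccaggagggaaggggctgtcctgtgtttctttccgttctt
The RefSeq start of S100a1 is at 90514330, inside the gene as GENCODE gives it. The letters TATAAA (the TATA box), CCAAT (the CCAAT box) and GGGCGG (the GC box) were searched on both strands. None of them is in these 42 bases or in the 300 bases around either start, while they are in 13.6%, 37.4% and 35.7% of the 32851 promoter windows. In the S100b window CCAAT is present at 2 places and the other letters at none. RefSeq windows were found for 9 of the 10 genes, and S100a10 has none.

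HuR binds U-rich and AU-rich stretches of mRNA, many of them in 3′ untranslated regions (UTRs), so the letters ATTTA and TTTTT were searched in the annotated 3′UTR of each gene's protein-coding transcript with the most counts, on the transcribed strand; for Clstn3 this is the long transcript, with 49.1% of the counts of the gene, as the short one is not protein-coding. The 3′UTR of S100b has 1091 bases, chr10:76260069-76261159, and holds ATTTA at 2 places and TTTTT at 1. Among 2384 genes with a 3′UTR within 25% of this length, 75.7% hold ATTTA and 84.7% hold TTTTT, so that having them does not set S100b apart. ATTTA is in none of the 3′UTRs of the other 9 genes, most of which are short, from 68 bases in S100a8 to 239 bases in S100a10, with 833 bases in Clstn3. The annotated 3′UTR of Clstn3 was 44.2% A or T, beside a median of 54.5% in genes of like length, and 67.1% of these hold ATTTA. The longest run of T was in S100a11, with 9, just before the end of the transcript. It was followed by S100a10 with 7, Clstn3 with 6 and S100a6 with 5. Among genes with a 3′UTR of like length, TTTTT is in 28.4% for S100a11 and 79.1% for Clstn3. For S100a10 and S100a6 these shares are 40.2% and 21.4%. The sites of S100b, as the gene of interest, and the longest runs of T in S100a11 and Clstn3, the genes with an unadjusted p under 0.05, are printed with the letters found in capitals. A match of letters is a description and not a binding site.
S100b, chr10:76260665-76260694, plus strand: tactaagtaaatATTTAatgccaacagttc
S100b, chr10:76261092-76261121, plus strand: aatccaagttacATTTAaataaaaactgca
S100b, chr10:76260826-76260855, plus strand: atggccagagtcTTTTTctagttagttgta
S100a11, chr3:93526258-93526287, plus strand: aataaaacaatgccaTTTTTTTTTaaatgt
Clstn3, chr6:124430908-124430937, minus strand: atatagtgtataTTTTTTcaatgttgtcgt
The Clstn3 stretch lies in the long transcript and beyond the annotated end of the short one.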

How the data were processed

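The authors deposited estimated counts (expected counts) per transcript for each library on GRCm38, not normalized, with reads that fit several transcripts divided among them; for mapping the study's methods name CLC Genomics Workbench, but not what wrote these counts. GENCODE M21 holds 103635 of the 105129 identifiers (version ignored) and all 25 of the 10 genes. Counts were summed by gene symbol and rounded. R 4.3.3 with edgeR 4.0.16 (filterByExpr, TMM, quasi-likelihood F-test, Benjamini-Hochberg over 14851 genes), limma 3.58.1, DESeq2 1.42.0 and Python 3.11.15 with pandas 2.3.3, numpy 2.4.6, scipy 1.17.1 and matplotlib 3.10.9 were used. The tests were tried on simulated data. CPM values on library totals were added after the data were seen. Log2 CPM used a prior count of 2. Levels per kilobase divide each transcript's CPM by its length. Members and gene lists were chosen with earlier results of these data known. In the lists of neurotrophic factors and of nerve genes, 1 gene each is not reported here. Genes named are the 10; other S100 genes, calsyntenins and partners that lead their list or pass the threshold; from each marker list the most abundant over all 8 libraries, those past the threshold and those at 0 counts in most libraries; the 5 nearest profiles of S100b, S100a1 and S100a8; Elavl1; and others as marked. Alternatives were DESeq2 size factors, library totals, no filter (at least 1 count in all), at least 10 counts in every library, DESeq2's Wald test (with its own filter), the likelihood ratio test of edgeR, limma voom (sample quality weights), a covariate (the mean log2 CPM of the 26 contractile genes), each gene's transcript of highest total, no minimum of the fold change, removal of A24 and A25 (fewest counts) or of A7, A8 and A31, and each library left out.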

Additional observations from a re-analysis of the deposited data

Results flagged for a closer look

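S100a6 in A24, at 31.1 CPM with TMM, was far above the other HuR KO libraries, by Dixon's rule for a sample far from the others. It was the 1 such case in the 10 genes within the HuR KO group, the 3 wild-type libraries being too few for the rule. Chance gives about 1 in 20 groups. The gap over the range was 0.733, against a critical value of 0.71. With library totals A24 was at 30.2 CPM, A29 came next within HuR KO at 17.3 CPM and A26 was lowest at 11.4 CPM. There the gap over the range lies below the critical value, so the flag rests on the scaling.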

How the results depend on the processing

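The count of 0 among the 9 genes other than S100b past the threshold held under all 20 alternatives, with 1 to 4 at an unadjusted p under 0.05. S100b was lower in HuR KO under each, with a log2 fold change from −1.51 to −0.79, a description only, as these libraries selected it. S100a4, S100a8, S100a11 and Clstn3 kept their direction under each alternative that gave a value (S100a8 and S100a9 could not be tested with at least 10 counts in every library), and 5 changed it. The number of genes past the threshold, 105, was 828 with DESeq2's Wald test, 655 with the likelihood ratio test, 15 with the contractile covariate, 16 with the transcript of the highest total, 5 without A24 and A25 and 4 without A7, A8 and A31, and, with single libraries left out, 10 without A26, 13 without A7, 14 without A29, 15 without A25, 17 without A31 and 190 without A12; fewer samples or a coarser gene value enter some of these, and otherwise the cause was not tested. With library totals, log2 fold changes of S100a1 (0.14), S100a6 (0.066) and S100a9 (0.33) became positive. So they did with limma voom for S100a1 (0.093) and S100a9 (1.251), with the contractile covariate for S100a1 (0.091) and S100a9 (0.99), without A24 and A25 for S100a9 (0.34), and without A7, A8 and A31 for S100a1 (0.23), S100a9 (1.44) and S100a10 (0.42). For S100a8 the value of 0.97 became 4.69 without A7, A8 and A31, 2.38 with the contractile covariate and 2.22 with limma voom. With single libraries left out the ranges were −0.37 to 0.34 for S100a1, −0.71 to −0.26 for S100a4, −0.44 to −0.004 for S100a6, 0.29 to 2.72 for S100a8, −0.55 to 1.95 for S100a9, −0.54 to 0.032 for S100a10 and −0.068 to 0.86 for S100a13; the cause was not tested.

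The study has 3 libraries in one group, and A12 is the lone wild-type library low in muscle transcripts, so muscle and genotype can only partly be told apart. A24 and A25 have the fewest counts and both are HuR KO. The labels and the study's legend differ in the group sizes. S100a8 has 1 count in A12 and 2 in A25. The labels do not give sex, or which control genotype each wild-type mouse had. RNA levels do not show protein or its secretion.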
